A study of Homo sapiens with 6 samples.

Results

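Messenger RNA of PC9-AMG cells was compared with that of PC9-BrM4 cells, 2 libraries of each, 4 of the 6 libraries of the series. The other 2 are of PC9, an established human lung adenocarcinoma line with an activating mutation of the growth factor receptor EGFR, and are shown beside the pair as levels. All cells were grown in MGS, so the PC9-AMG, PC9-BrM4 and PC9 groups differ by cell line alone in the labels. The names mark both lines as derivatives of PC9, and the labels do not expand AMG, BrM4 or MGS. The description of each of the 6 libraries also holds the word mix, which the labels do not explain. BrM is a usual name for cells selected in mice for growth in the brain. MGS is understood to stand for growth with glia on a soft support, which is background knowledge and not in the labels. The labels do not say whether RNA of such cells entered the libraries. It is not given whether a line is 1 clone or whether the 2 libraries of a line are separate cultures, so p-values measure the spread between libraries, which may be technical.

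Cancer cells that settle in the brain meet astrocytes and microglia, and lines selected in different hosts or cultures can keep different states of adhesion, lineage, metabolism and stress response. Comparing 2 derivatives of 1 parent in 1 culture asks which of these genes separate them. A difference in bulk RNA does not tell fewer expressing cells from less RNA per cell.

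Values are TPM, the share of a length-normalised transcript in a library. The 2 TPM of a line are given as library 1 and library 2, and differences are PC9-AMG minus PC9-BrM4 on the log2(TPM + 1) scale, which understates the change of low genes. A gene was tested where at least 2 of the 4 libraries held at least 1 TPM, which 14237 of 26475 genes did. It was called at an adjusted p under 0.05 by limma with Benjamini-Hochberg adjustment over the 14237 genes. Rose, fell, higher and lower are used of called genes and refer to PC9-AMG relative to PC9-BrM4.

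The epithelial label held in both lines. The 12 lung epithelial and carcinoma markers summed to between 17348 and 17725 TPM in PC9-AMG and between 15040 and 15593 TPM in PC9-BrM4, with none at 0. The lung lineage genes NKX2-1 and SFTPC were under 1 TPM or at 0 in all 6 libraries. The astrocyte markers GFAP, S100B and FABP7 were listed at 0 in all 6 libraries, as were the microglia markers AIF1, CX3CR1, P2RY12, TMEM119, TYROBP, C1QA, C1QB, C1QC and TREM2. The full list of 13 microglia and macrophage markers summed to between 225 and 246 TPM in PC9-AMG, 166 and 181 TPM in PC9-BrM4 and 226 and 232 TPM in PC9. In each of these groups 10 of the 13 were under 1 TPM in both libraries. Of the 3 tested among them 1 was higher and 0 lower, and that 1 marker made up most of each sum. The PC9-BrM4 libraries stood apart from each other by transcript length. Across 13371 genes their difference (library 1 minus library 2) had a Spearman correlation of 0.486 with length, against 0.0622 between the PC9-AMG libraries. The difference between the lines had a Spearman correlation of -0.246 with length and 0.142 with GC content. These are correlations across genes, which are not independent. The part of transcript length in the results was not tested beyond removing its trend. Counts without PC9-BrM4 library 1 stand beside most main counts where they moved by over 1.5 times.

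PC9-AMG and PC9-BrM4 differed in 2818 genes, 19.8% of those tested, of which 933 (6.55%) were higher and 1885 (13.2%) lower in PC9-AMG. A difference of at least 1 was found in 560 genes (3.93%), 226 higher and 334 lower. The values of the lines did not overlap in 8544 genes (60.0%). Without PC9-BrM4 library 1 the calls were 487 higher and 627 lower, and without PC9-BrM4 library 2 they were 838 and 2149. The median difference of the tested genes was -0.13, so medians of gene lists are given relative to it. Counts of higher and lower list members are of the unshifted differences unless median centring is named. They are to be read beside the 6.55% higher and 13.2% lower of all tested genes. Centring each library on its median turned the split to 1528 higher and 940 lower genes.

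**Figure D1:**
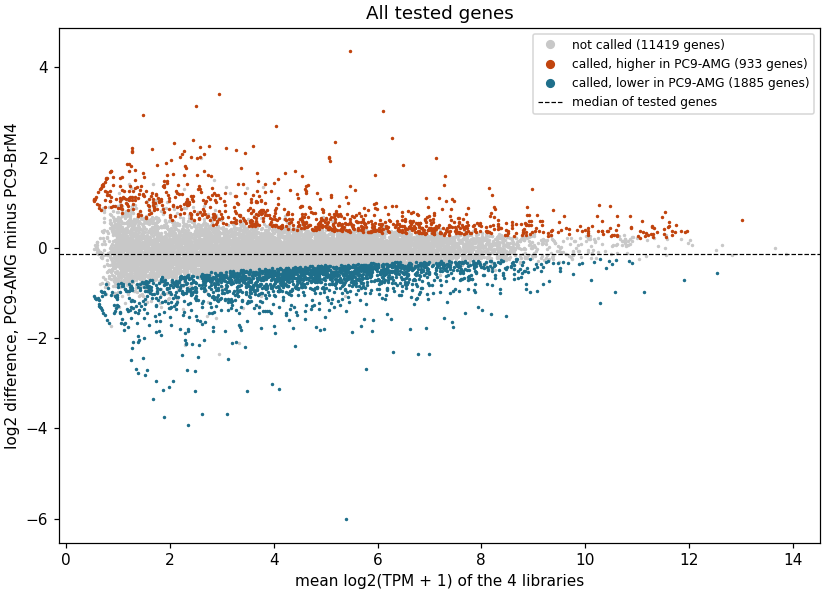
Log2 difference between PC9-AMG and PC9-BrM4 (vertical axis) against the mean log2(TPM + 1) of the 4 libraries (horizontal axis), 1 point per tested gene. Red points are the 933 genes called higher in PC9-AMG, blue points the 1885 called lower, and the dashed line is the median of -0.13; CALML5 lies lowest at -6.01 and CEACAM6 highest at 4.36.

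The gene with the largest rise was CEACAM6, a cell surface adhesion glycoprotein of epithelia and carcinomas (chr19:41755520-41772208, hg38). Its libraries held 189 and 209 TPM in PC9-AMG and 9.98 and 7.63 TPM in PC9-BrM4, beside 552 and 512 TPM in PC9. The groups were far apart, with means 22.6-fold different (log2 difference 4.36, SE 0.125, limma adjusted p = 1.74e-08). The neighbouring family member CEACAM5 (chr19:41708585-41730421) held 5.59 and 5.83 TPM in PC9-AMG, 0.511 and 0.422 TPM in PC9-BrM4, and 42.0 and 37.6 TPM in PC9. Both CEACAM genes were thus lowest in PC9-BrM4, intermediate in PC9-AMG and highest in PC9. TFF1, a secreted trefoil peptide of mucous epithelia, held 21.6 and 27.0 TPM in PC9-AMG against 1.66 and 1.09 TPM in PC9-BrM4 (log2 difference 3.42).

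APOE, the lipid carrier that astrocytes also secrete, held 41.9 and 39.7 TPM in PC9-AMG and 4.52 and 6.51 TPM in PC9-BrM4, a log2 difference of 2.70. PC9 lay between PC9-BrM4 and PC9-AMG with 9.17 and 13.9 TPM. Of the 7 tested astrocyte markers, 3 were higher (APOE, ALDOC by 0.93 and ALDH1L1 by 0.68) and 3 lower. The higher count stayed at 3 without PC9-BrM4 library 1 and with median centring, while the lower count became 0 and 1, and 0 to 2 with any 1 library left out. Their summed level was 469 to 501 TPM in PC9-AMG and 439 to 440 TPM in PC9-BrM4. SLC1A3, the astrocyte glutamate transporter, was on the lower side with 0.652 and 0.361 TPM against 3.44 and 2.12 TPM in PC9-BrM4. Its call was lost without PC9-AMG library 2 (limma adjusted p = 0.0600) and without PC9-BrM4 library 1 (0.0898). The list members GFAP, S100B and FABP7 were at 0, as given above, and whether other cells add to the values of this list was not tested.

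The other large rises were of genes with varied roles. KYNU, an enzyme of tryptophan breakdown, held 75.8 and 85.1 TPM in PC9-AMG against 14.1 and 15.8 TPM, and the TNF receptor family member CD40 held 26.3 and 25.2 TPM against 6.36 and 3.20 TPM. AOC1, a diamine oxidase, rose by 2.23, GNGT2, a G protein gamma subunit, by 2.39, ARHGEF25 by 2.32, TMEM156 by 2.27 and PKIB, an inhibitor of protein kinase A, by 2.22. H3F3A, a histone H3.3 gene, held 187 and 206 TPM against 20.4 and 26.3 TPM, but its 2 PC9 libraries held 28.9 and 214 TPM. Near-identical copies make the assignment of its reads uncertain, and its call was lost without each of the 4 compared libraries (adjusted p from 0.0671 to 0.145).

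CALML5, a calmodulin-like protein of differentiating epidermis (chr10:5498695-5499570), had the largest fall. Its libraries held 4.33 and 4.07 TPM in PC9-AMG and 295 and 380 TPM in PC9-BrM4, beside 3.05 and 3.35 TPM in PC9. PC9-BrM4 alone was high, by 80.3-fold over PC9-AMG (log2 difference -6.01, SE 0.153, limma adjusted p = 9.76e-09). H19, a non-coding RNA from an imprinted locus (chr11:1995176-2001466), held 0.394 and 0.220 TPM in PC9-AMG and 18.6 and 18.8 TPM in PC9-BrM4 in the table of all libraries. That table holds 1 of its rows: summed over the rows of the library tables, H19 held 1.06 and 0.504 TPM in PC9-AMG and 41.4 and 42.7 TPM in PC9-BrM4.

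RARRES2, the chemoattractant chemerin, was listed at 0 in both PC9-AMG libraries and held 8.74 and 9.76 TPM in PC9-BrM4. CPVL, a carboxypeptidase of phagocytes, held 3.48 and 5.61 TPM against 44.1 and 42.6 TPM in PC9-BrM4, and was at 0 and 0.547 TPM in PC9. The Wnt antagonist SFRP1 held 5.30 and 4.35 TPM against 55.5 and 45.1 TPM. Also lower were COL6A3, a collagen VI chain (log2 difference -3.14), the membrane protein gene SUSD2 (-3.17), ANKRD35 (-3.16), the blood group gene XG (-2.94) and the calcium-binding CABP4 (-2.81). MIA, a secreted protein first known from melanoma, held 1.91 and 0 TPM against 24.1 and 18.1 TPM, and a read-through gene model that overlaps it makes this value uncertain. In all 14 of the largest falls the PC9 mean lay nearer to PC9-AMG than to PC9-BrM4, and so it did in 9 of the 14 largest rises. Over all tested genes PC9 was also nearer to PC9-AMG. Pearson correlations of its libraries were 0.979 to 0.982 with PC9-AMG and 0.967 to 0.968 with PC9-BrM4. The share of all tested genes with PC9 nearer to PC9-AMG was not counted.

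**Figure D2:**
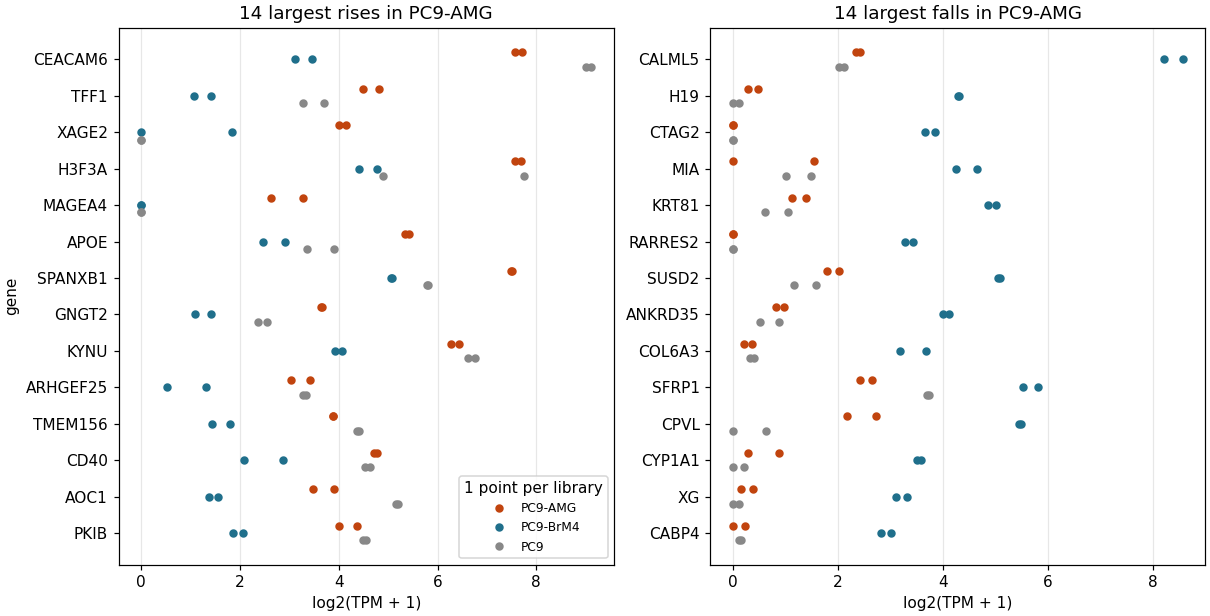
Log2(TPM + 1) of each library (horizontal axis) for the 14 largest called rises (left) and the 14 largest called falls (right) in PC9-AMG, 1 point per library, coloured by line. For the falls the mean of the grey PC9 points lies nearer to the red PC9-AMG points than to the PC9-BrM4 points, which are the highest, for example CALML5 at 295 and 380 TPM.

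Cancer-testis genes, normally silent outside germ cells, moved in both directions. XAGE2 held 16.7 and 14.99 TPM in PC9-AMG, 0 and 2.57 TPM in PC9-BrM4 and 0 in PC9, and MAGEA4 held 5.20 and 8.68 TPM and was listed at 0 in PC9-BrM4 and PC9. CTAG2 was the reverse, listed at 0 in PC9-AMG and PC9 and at 13.4 and 11.6 TPM in PC9-BrM4. Its near copy CTAG1A was at 1.53 and 2.13 TPM in PC9-BrM4 and listed at 0 elsewhere. SPANXB1 of the sperm protein family rose by 2.43, to 179 and 180 TPM. Of the 14 tested genes of the cancer-testis list, 3 were higher and 2 lower. These are 35.7% of the list, beside 19.8% of all tested genes called. Reads of such multi-copy families may be shared between members.

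Metallothioneins, small cysteine-rich proteins that bind zinc and copper, were higher in PC9-AMG. All 5 tested of 11 members were called higher (4 without PC9-BrM4 library 1), and their median stood 1.44 above that of all tested genes. MT2A held 775 and 812 TPM in PC9-AMG, 320 and 320 TPM in PC9-BrM4 and 661 and 627 TPM in PC9. MT1X held 246 and 256 TPM against 90.4 and 98.6 TPM, beside 188 and 172 TPM in PC9. The groups did not overlap in either gene, which held for 60.0% of tested genes, and PC9 lay nearer to PC9-AMG. Mean TPM of MT1A was 5.05-fold higher, and MT1E rose by 1.10 on the log2 scale. MT1F, at 21.3 and 30.4 TPM against 11.3 and 19.1 TPM, lost its call without either PC9-AMG library or PC9-BrM4 library 1 (adjusted p from 0.0549 to 0.294).

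These genes lie in 1 cluster on chromosome 16, from MT2A at chr16:56608566-56609497 to MT1X at chr16:56682470-56684196. Their transcription is known to respond to zinc through metal response elements, so the 250 bases before the RefSeq start of MT2A and MT1X are shown, the 2 of 5 tested members matched in RefSeq and the most abundant (GRCh38.p14, plus strand, chr16:56608334-56608583 for MT2A and chr16:56682220-56682469 for MT1X). Capitals mark matches to the element's core, TGCACNC or TGCGCNC, on either strand, 7 in MT2A and 4 in MT1X. The MT2A stretch runs 18 bases into the gene as the deposited tables place it, and its last match, 1 of the 7, lies inside the gene there.
MT2A: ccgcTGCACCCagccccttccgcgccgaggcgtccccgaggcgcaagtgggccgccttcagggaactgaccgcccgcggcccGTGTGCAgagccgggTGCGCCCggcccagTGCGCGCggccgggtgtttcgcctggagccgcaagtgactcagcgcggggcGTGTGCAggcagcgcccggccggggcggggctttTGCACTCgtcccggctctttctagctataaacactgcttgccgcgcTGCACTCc
MT1X: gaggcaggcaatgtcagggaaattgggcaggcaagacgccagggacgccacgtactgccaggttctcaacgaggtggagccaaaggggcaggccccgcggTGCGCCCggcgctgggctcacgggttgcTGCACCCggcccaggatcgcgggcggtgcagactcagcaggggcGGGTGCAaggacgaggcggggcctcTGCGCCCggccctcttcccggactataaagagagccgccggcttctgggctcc
Of 27305 promoters of this length, 24.7% held at least 1 match and 6.51% at least 2. A match is a run of letters, not a measured binding site.

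Most genes of cholesterol synthesis and uptake were lower in PC9-AMG. Of 25 tested members 16 were lower and 1 higher (8 and 0 without PC9-BrM4 library 1, 10 and 1 with median centring), and the list's median difference was -0.25 once that of all tested genes was subtracted. ACAT2, which makes acetoacetyl-CoA, held 11.3 and 10.8 TPM in PC9-AMG and 26.0 and 25.7 TPM in PC9-BrM4, beside 8.76 and 9.22 TPM in PC9. The isomerase gene IDI1 held 24.6 and 27.8 TPM against 50.2 and 48.1 TPM, beside 20.9 and 20.3 TPM in PC9. In both genes PC9-AMG lay nearer to PC9 than PC9-BrM4 did. The exception was STARD4, a sterol carrier, at 2.59 and 2.62 TPM against 0.797 and 0.659 TPM, a call lost without either PC9-AMG library or PC9-BrM4 library 1 (adjusted p from 0.0520 to 0.0610).

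In the fatty acid synthesis list 7 of 18 members were lower and 0 higher (2 and 0 without PC9-BrM4 library 1, 4 and 0 with median centring). The desaturase gene SCD held 29.8 and 28.6 TPM against 66.1 and 48.1 TPM, and its relative SCD5 42.5 and 43.3 TPM against 70.5 and 66.3 TPM.

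**Figure D3:**
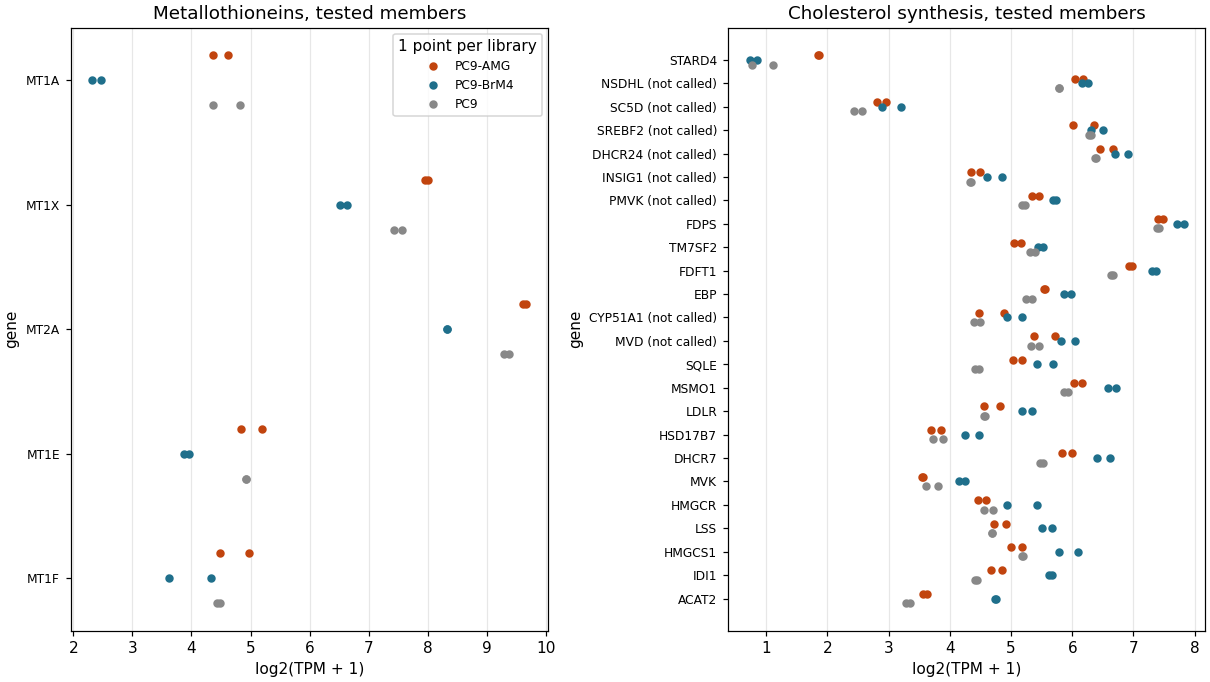
Log2(TPM + 1) of each library (horizontal axis) for tested metallothioneins (left) and cholesterol genes (right), 1 point per library, coloured by line. The blue PC9-BrM4 points lie left of the others for the metallothioneins and right of them for most cholesterol genes, such as ACAT2 at 26.0 and 25.7 TPM.

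Among tested lineage genes 41.7% were called, beside 19.8% of all tested genes. FOXA1, a pioneer transcription factor of lung and gut, held 7.63 and 8.72 TPM in PC9-AMG, 0.809 and 1.83 TPM in PC9-BrM4 and 14.2 and 14.5 TPM in PC9. GATA6, a lung and gut endoderm factor, held 13.99 and 14.5 TPM against 7.90 and 7.11 TPM, and AGR2, a disulphide isomerase of mucous cells, 34.6 and 34.4 TPM against 22.4 and 23.6 TPM. Each was lowest in PC9-BrM4 and highest in PC9. TP63, the basal cell factor, was at 2.15 and 2.61 TPM against 0.487 and 0.325 TPM, a call lost without PC9-AMG library 2 (adjusted p = 0.0522). In all, 4 of 12 tested lineage genes were higher and 1 lower (4 and 0 with median centring and without PC9-BrM4 library 1).

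Keratin genes, which mark kinds of epithelium, differed in both directions. KRT5, of basal cells, held 21.6 and 19.6 TPM against 148 and 127 TPM in PC9-BrM4, and the hair keratin KRT81 1.62 and 1.19 TPM against 27.9 and 31.4 TPM. KRT23 held 0.312 and 0.121 TPM against 3.28 and 2.51 TPM. KRT18, of simple epithelia, held 2745 and 2668 TPM against 1776 and 1794 TPM, with PC9 at 2751 and 2710 TPM. The keratin list, which also holds CALML5, had 3 of 19 members higher and 6 lower.

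Some mesenchymal and contractile genes were lower in PC9-AMG. VIM, the intermediate filament of mesenchymal cells, held 90.1 and 88.7 TPM in PC9-AMG, 269 and 257 TPM in PC9-BrM4 and 163 and 162 TPM in PC9, so PC9 lay between the derivatives. S100A4, a calcium-binding protein tied to motility, held 814 and 819 TPM against 1793 and 2045 TPM. TNC, an extracellular matrix glycoprotein, fell by 1.25. Of 20 tested mesenchymal genes 8 were lower and 1 higher (6 and 0 without PC9-BrM4 library 1). Among 22 contractile genes 9 were lower and 1 higher (5 and 1 with median centring, 6 and 0 without PC9-BrM4 library 1): the tropomyosin TPM1 held 168 and 178 TPM against 489 and 473 TPM, and TPM2 (log2 difference -1.58), the smooth muscle gene TAGLN (-1.19) and the actin crosslinker ACTN1 (-0.66) fell.

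Adhesion genes of epithelia were among both the lower and the higher genes. CEACAM6 and CEACAM5, given above, are on the junction and adhesion list and rose. With median centring that list had 6 genes lower and 3 higher, and the list of integrins, laminins and basement membrane 4 and 4. CDH1, encoding E-cadherin, held 84.5 and 75.6 TPM in PC9-AMG against 159 and 124 TPM in PC9-BrM4. Of 32 junction and adhesion genes 13 were lower and 3 higher, but 2 lower and 3 higher without PC9-BrM4 library 1. Integrin subunit genes ITGB8 (-1.48) and ITGB6 (-0.92), which bind latent TGF-beta, fell, while the basement membrane collagen gene COL4A1 rose by 1.07. The list of integrins, laminins and basement membrane had 8 of 25 members lower and 3 higher (4 and 2 without PC9-BrM4 library 1).

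Of genes that mediate brain metastasis in other models, 8 of 14 were lower and 1 higher in PC9-AMG (5 and 1 without PC9-BrM4 library 1), and the list's median was -0.43 after subtracting that of all tested genes. ST6GALNAC5, a sialyltransferase linked to passage of the blood-brain barrier, held 0.299 and 0.0998 TPM in PC9-AMG and 6.29 and 4.72 TPM in PC9-BrM4. The secreted lipase inhibitor ANGPTL4 held 49.1 and 48.1 TPM against 94.2 and 110 TPM, and the matrix proteoglycan SPOCK1 fell by 1.04. L1CAM, an axon adhesion molecule, held 69.5 and 51.3 TPM against 105 and 87.2 TPM, a call lost without PC9-AMG library 2 (adjusted p = 0.0746) and PC9-BrM4 library 1 (0.136). SERPINI1, a plasmin-pathway inhibitor, was not called at 2.78 and 3.61 TPM against 4.39 and 5.11 TPM (adjusted p = 0.128).

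EGFR, the mutated driver of PC9, held 188 and 155 TPM in PC9-AMG, 359 and 215 TPM in PC9-BrM4 and 204 and 204 TPM in PC9. The groups did not overlap, but the PC9-BrM4 libraries were far apart, and the call (log2 difference -0.70, limma adjusted p = 0.0268) was lost without either PC9-AMG library (0.0756 and 0.198), without PC9-BrM4 library 1 (0.171) and with median centring (0.0625). Its ligand genes EREG, at 1.63 and 1.35 TPM against 4.97 and 4.37 TPM, and TGFA, at 45.2 and 45.3 TPM against 74.4 and 58.2 TPM, were lower. Neither call held without PC9-BrM4 library 1 (adjusted p = 0.0529 and 0.111), and that of TGFA was also lost without either PC9-AMG library (0.0723 and 0.0792) and with median centring (0.0532). ERBB2 (43.3 and 35.0 against 51.1 and 44.4 TPM), ERBB3 (63.4 and 59.8 against 69.2 and 58.3 TPM), MET (122 and 136 against 149 and 109 TPM) and AXL (168 and 159 against 169 and 146 TPM) were not called, with adjusted p from 0.149 to 0.957. MET and AXL were called higher once trends with length and GC content were removed (0.0240 and 0.0379). FGFR3, a receptor of fibroblast growth factors, fell from 16.3 and 12.96 TPM in PC9-BrM4 to 5.74 and 4.34 TPM.

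Among 23 ERK pathway output genes 6 were lower and 1 higher (3 and 1 without PC9-BrM4 library 1). The guidance receptor EPHA4 held 2.08 and 2.16 TPM against 12.7 and 11.1 TPM, and the feedback inhibitor SPRY2 22.7 and 26.4 TPM against 48.9 and 49.4 TPM. SPRY4 held 5.51 and 4.13 TPM against 11.8 and 8.52 TPM, a call lost without PC9-AMG library 2 or PC9-BrM4 library 1 (adjusted p = 0.0905 and 0.0947). The cytokine gene IL11 rose by 0.81, which did not hold without PC9-AMG library 2 (0.0538). The immediate early gene FOS held 1069 and 1105 TPM against 2179 and 2090 TPM and KLF6 fell by 0.50, with 3 of 14 genes of that list lower and 0 higher. This share, 21.4%, was near the 19.8% of all tested genes called, and the list's median lay 0.02 above theirs. Of the YAP and TEAD targets 10 of 22 were lower and 1 higher (6 and 0 without PC9-BrM4 library 1), among them MYOF, a membrane repair protein, at 181 and 153 TPM against 377 and 267 TPM, and CTGF, a matricellular protein, at 43.5 and 47.1 TPM against 90.2 and 82.4 TPM.

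In the NF-kappaB and cytokine list 8 of 21 genes were lower and 1 higher, while median centring gave 7 lower and 4 higher, and leaving out PC9-BrM4 library 1 gave 5 and 0. The median of the list lay 0.05 above that of all tested genes. The neutrophil chemokine CXCL1 held 3.36 and 3.44 TPM against 14.3 and 15.1 TPM, and TNFAIP2 75.7 and 67.3 TPM against 167 and 148 TPM. IL1A was the gene on the higher side, at 3.32 and 4.01 TPM against 1.303 and 1.36 TPM, and lost its call without PC9-AMG library 2 (adjusted p = 0.0670) or PC9-BrM4 library 1 (0.0552). Of 28 interferon-stimulated genes 4 were higher and 3 lower (1 and 2 without PC9-BrM4 library 1). Of the interferon list 25% was called, beside 19.8% of all tested genes, and its median was -0.03 relative to theirs. The membrane tether BST2 held 3.67 and 4.54 TPM against 21.0 and 23.6 TPM and the transcription factor IRF7 11.9 and 11.2 TPM against 21.9 and 24.3 TPM, whereas IFI44 rose by 1.27.

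Secreted signals of the TGF-beta and Wnt families diverged by gene. INHBA, the activin A subunit, held 179 and 180 TPM in PC9-AMG against 89.2 and 76.7 TPM. LTBP2, a latent TGF-beta binding protein family member, held 26.4 and 19.7 TPM against 96.3 and 77.2 TPM, and BMP7 3.68 and 3.12 TPM against 10.8 and 9.17 TPM. In the TGF-beta list 3 of 24 were higher and 6 lower (5 and 3 with median centring, 2 and 3 without PC9-BrM4 library 1). WNT11, a Wnt ligand, held 1.27 and 1.53 TPM against 8.57 and 9.21 TPM. The Wnt receptor ROR1 fell by 0.94, not held without PC9-BrM4 library 1 (adjusted p = 0.0536), and WNT5A was not called (26.8 and 30.1 against 37.4 and 32.7 TPM). The Wnt list had 7 of 26 lower and 2 higher (3 and 2 without PC9-BrM4 library 1). LFNG, which modifies Notch, fell by 1.13. The neurite factor PTN was at 1.71 and 2.13 TPM in PC9-AMG, listed at 0 in PC9-BrM4 and at 8.23 and 9.85 TPM in PC9, and the guidance factor SEMA3A rose by 1.20.

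In the list of retinoid metabolism and aryl hydrocarbon receptor targets 7 of 20 were lower and 0 higher, with the same counts without PC9-BrM4 library 1 and with median centring. CYP1A1, a xenobiotic-metabolising enzyme, held 0.836 and 0.219 TPM against 10.9 and 10.4 TPM. ALDH1A3, which makes retinoic acid, held 152 and 167 TPM against 456 and 375 TPM, and the retinoid-induced RARRES1 46.6 and 49.2 TPM against 255 and 239 TPM. PC9 lay nearer to PC9-AMG in each, at 0.152 and 0 TPM, 229 and 221 TPM, and 59.9 and 58.1 TPM.

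Stress response lists were split. NRF2 targets, the antioxidant genes, had 10 of 26 members higher and 7 lower (8 and 2 without PC9-BrM4 library 1, 11 and 2 with median centring). AKR1B10, an aldo-keto reductase, held 262 and 283 TPM against 93.3 and 86.7 TPM, and OSGIN1 51.9 and 42.5 TPM against 27.0 and 26.7 TPM. The subunits of the glutathione-synthesis enzyme moved apart: the modifier GCLM rose by 0.77 and the catalytic GCLC fell by 0.84. In the ATF4 amino-acid stress list 5 of 26 were higher and 4 lower, against 12 and 1 with median centring and 4 and 1 without PC9-BrM4 library 1. GDF15, a stress cytokine, held 13.1 and 10.8 TPM against 2.46 and 1.66 TPM, DDIT3, a stress transcription factor, 33.4 and 44.5 TPM against 15.4 and 13.2 TPM, and the serine enzyme gene SHMT2 rose by 0.62. NUPR1, a chromatin-associated stress protein, held 17.8 and 14.1 TPM against 29.3 and 35.5 TPM, both above the 2.19 and 2.37 TPM of PC9. Of 26 tested chaperone genes 7 were lower and 1 higher, against 1 lower and 6 higher with median centring. HSP90AA1, on the lower side, held 1516 and 1696 TPM against 3240 and 3119 TPM. HSPB1 was the gene on the higher side, at 1018 and 956 TPM against 552 and 656 TPM.

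In the hypoxia list 10 of 30 were lower and 3 higher (4 and 2 without PC9-BrM4 library 1, 5 and 4 with median centring). The glucose transporter gene SLC2A3 held 134 and 135 TPM in PC9-AMG, 280 and 246 TPM in PC9-BrM4 and 82.8 and 81.6 TPM in PC9. A separate list of glycolysis genes had a median of -0.01 relative to that of all tested genes. Of that list LDHA, which makes lactate, held 2912 and 3082 TPM against 5089 and 4787 TPM. The aldolase gene ALDOC, which is on both lists, was higher, with 109 and 105 TPM against 56.8 and 54.5 TPM.

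Proteases and their inhibitors changed member by member. KLK7, a skin kallikrein, held 210 and 209 TPM against 611 and 590 TPM, and the serpin SERPINB5 fell by 0.78, while the urokinase gene PLAU held 495 and 452 TPM against 317 and 316 TPM. Among lysosomal genes 10 of 28 were lower and 2 higher (4 and 3 with median centring, 5 and 2 without PC9-BrM4 library 1): cathepsin C, from CTSC, held 118 and 130 TPM against 358 and 324 TPM, and cathepsin L, from CTSL, held 248 and 254 TPM against 112 and 123 TPM. The median of the lysosomal list was -0.03 relative to that of all tested genes. The metalloprotease genes MMP28 and MMP7 rose by 1.81 and 1.10, and the inhibitor TIMP3 held 33.3 and 33.6 TPM against 106 and 100 TPM. Of 13 tested S100 genes 4 were higher and 3 lower (4 and 2 without PC9-BrM4 library 1, 4 and 1 with median centring). S100A9 (1.61), S100A2 (0.79), S100A14 (0.51) and S100P (0.50) rose, and besides S100A4 the genes S100A10 (-0.35) and S100A11 (-0.28) fell. Neither of these 2 falls was called with median centring (limma adjusted p = 0.355 and 0.537), and that of S100A11 was also lost without either PC9-AMG library (0.0586 and 0.0730), PC9-BrM4 library 1 (0.0674) or either PC9 library (0.0564 and 0.0561).

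Ribosomal protein genes, a list kept as a sign of RNA quality, had 25 of 40 higher and 0 lower (12 and 0 without PC9-BrM4 library 1, 30 and 0 at most), and their median stood 0.42 above that of all tested genes. RPS19 held 2296 and 2484 TPM against 1337 and 1577 TPM, and RPL38 rose by 0.72. The oxidative phosphorylation list had 10 of 30 higher and 0 lower, but 2 and 0 without PC9-BrM4 library 1. COX8A held 588 and 634 TPM against 379 and 426 TPM, and ATP5B rose by 0.52. Removing the trends with length and GC content left 25 ribosomal and 13 oxidative phosphorylation genes higher. Of the cell cycle list 23.5% was called, beside 19.8% of all tested genes, and its median stood 0.16 above theirs. Of 34 cell cycle genes 5 were higher, among them the mitotic kinase AURKB (0.54), and 3 lower, among them the replication clamp PCNA (-0.67), and without PC9-BrM4 library 1 the counts were 2 and 1.

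**Figure D4:**
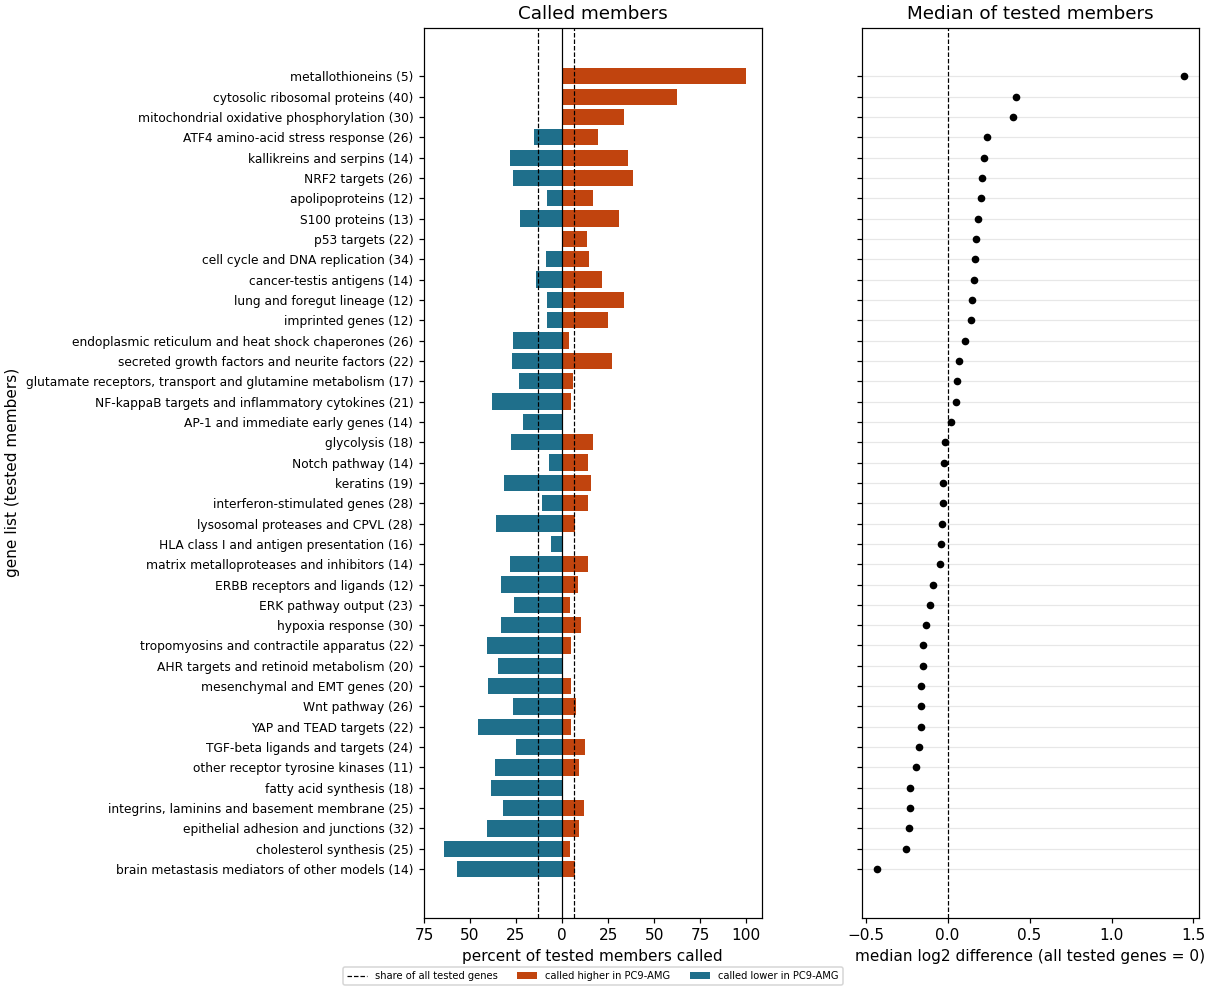
Percent of each list's tested members called higher (right, red) or lower (left, blue) in PC9-AMG, with dashed lines at the shares of all tested genes (6.55% and 13.2%), beside each list's median log2 difference relative to all tested genes. Metallothioneins stand at the top with a median of 1.44 and the brain metastasis list at the bottom with -0.43.

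Neighbouring genes moved together in some places. Scanned 50 tested genes at a time along each chromosome, the median difference relative to all tested genes lay between -0.25 and 0.39 for the middle 95% of 13104 overlapping windows. The highest window began at KRT18 (chr12:52948871-55966712), with a median of 0.56 and 22 genes higher and 1 lower. Beside PC9, PC9-BrM4 was at -0.60 there and PC9-AMG at -0.04. The next window on that chromosome (chr12:56152420-57752447), with SHMT2, DDIT3, ARHGEF25 and ATP5B, had 20 genes higher and 0 lower. The lowest window (chr14:73886615-77933954) holds FOS and LTBP2 and had a median of -0.58, with 35 genes lower and 0 higher. There PC9-AMG was at -0.50 relative to PC9 and PC9-BrM4 at 0.10. HSP90AA1 and TNFAIP2 lie in another low window (chr14:94050922-103858049, median -0.43), and IL11 in a high one (chr19:55075853-57379557, median 0.51). In each of these windows library 1 minus library 1 and library 2 minus library 2 had the same sign. The windows were picked as extremes of the difference over these same libraries, so the shared sign is no separate support. The part of gene position in the values of the genes named here was not tested.

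**Figure D5:**
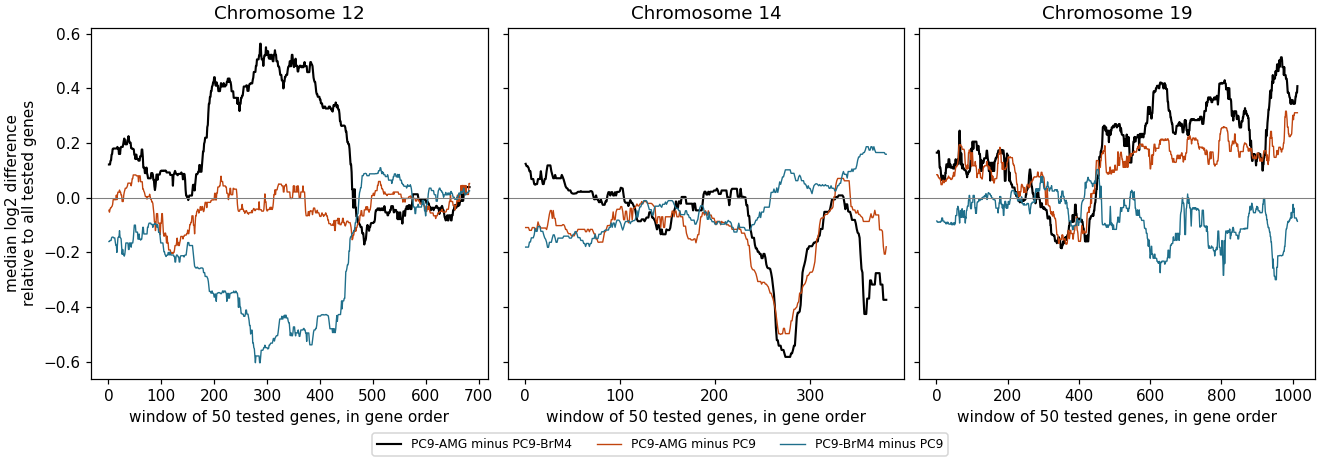
Median log2 difference relative to all tested genes (vertical axis) in windows of 50 tested genes in gene order (horizontal axis) along chromosomes 12, 14 and 19. Black lines compare PC9-AMG with PC9-BrM4, red and blue lines each derivative with PC9: at the black peak on chromosome 12 (0.56) the blue line is at -0.60, and at the trough on chromosome 14 (-0.58) the red line is at -0.50. The 3 differences share libraries.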

How the data were processed

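Stranded mRNA libraries were mapped with HISAT2 2.1.0 and quantified with StringTie 1.3.4d on hg38, per the submitters' processing notes; the annotation used is not given in the sources used here. The deposited table of all libraries gives TPM computed by the authors, of which 98.9% of genes equal the library tables within 0.001 TPM. The authors' deposited library tables give FPKM, an alternative here, and per-base coverage, which was 0.606 to 0.822 at 1 TPM. They give no read counts, so no interval for counting error could be given.

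Log2(TPM + 1) was fitted with limma 3.58.1 in R 4.3.3, with a mean per line over all 6 libraries, a variance trend and empirical Bayes moderation (3 residual and 7.67 prior degrees of freedom), two-sided. The script was tested on simulated data. Named genes are a selection from the 14 largest called rises and falls (at least 5 TPM in the higher group, groups not overlapping, no clone, locus, small-RNA or read-through name), the called members of each list with the largest differences, 4 at most, all members where 5 or fewer were called, and fixed genes, EGFR among them. Members, lists and tests were chosen with earlier results of these data known. Lists are described by counts, without a set test.

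Alternatives were other scalings, pseudocounts, filters, units, moderation, the replicate block, and leaving out each library; removing length and GC trends (GENCODE transcripts) and leaving out small-RNA genes were chosen after seeing the data. Certain genes of the lists are counted but are not reported by name in the text or plots.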

Additional observations from a re-analysis of the deposited data

How the results depend on the processing

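The 2818 calls became 1840 with no filter and between 1114 and 2987 with 1 library left out, lowest without PC9-BrM4 replicate 1; without PC9-AMG replicate 2 they were 1536. Higher calls, 933, were 1528 with median centring, 1907 with length and GC trends removed and 487 to 838 with a library left out. Lower calls, 1885, were 940 with median centring, 1194 with quantile normalization, 1138 with no filter and 627 to 2149 with a library left out. The 560 calls of at least 1 became 370 with a filter at 5 TPM, 306 with FPKM and 447 to 657 with a library left out. Where a library is left out, the lone library of its line is assumed to vary like the other lines. The remaining causes were not tested. Replicate numbers were not treated as pairs (correlation of deviations 0.0175 between the lines compared); with the replicate block there were 3099 calls and no named gene changed its call.

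Of 125 called genes named with a test, 111 kept direction and call without each library in turn. Among genes not called, ERBB3 (-0.05 as reported) reversed to 0.118 with median centring, 0.0579 with quantile normalization, 0.00899 with TPM rescaled without the 100 highest genes, 0.0639 with FPKM and 0.158 with length and GC trends removed. With a library left out ERBB3 ranged from -0.168 to 0.0755 (without PC9-BrM4 replicate 1), MET from -0.208 to 0.233 and AXL from -0.0534 to 0.160 (lowest in both without PC9-BrM4 replicate 2). No named gene that was called reversed under any alternative.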
